A study of Arabidopsis thaliana with 12 samples.

Results

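The comparison set the F1 hybrid C24xCol, whose mother was C24, against the reciprocal F1 hybrid ColxC24, whose mother was Col. Both carry 1 nuclear genome from each of the Arabidopsis thaliana accessions C24 and Col, so that their nuclear genotype is the same and the direction of the cross differs. Messenger RNA of rosette leaves was sequenced in C24xCol, in ColxC24, in the parent C24 and in the parent Col. Plants on soil were sampled before bolting at 3 weeks of age, under 16 h light and 8 h dark, and the labels name no treatment. Leaves were taken at zeitgeber time 0, 6 and 15 (ZT0, ZT6 and ZT15, in hours). Each genotype had 1 library at each time, so the hybrids hold 6 of the 12 libraries and no library has a replicate. The labels do not give the number of plants behind a library. Gene models of each locus were summed, and 17207 of 32592 loci were compared, those whose mean over the 12 libraries reached 1 RPKM (reads relative to the length of the gene model and the size of the library).

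Reciprocal hybrids are the standard way to look for effects of the mother. In Arabidopsis the chloroplast genome comes from the mother, and the seed in which the embryo grows is nourished by an endosperm with a double maternal contribution, in which some genes are expressed from 1 parental allele. The nuclear alleles behind leaf transcript levels are the same in both reciprocal F1 plants. Many leaf transcripts cycle over the day under the circadian clock, in which CCA1 and LHY act in the morning and TOC1 and GI towards the evening. Salicylic acid and jasmonate are the hormones of separate and partly opposed defence pathways, against pathogens that live on living tissue and against wounding and chewing insects.

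The estimated depth lay between 23.5 and 26.1 M reads in the hybrids (M stands for 1e6) and between 16.8 and 26.8 M reads over all 12 libraries. Summed leaf markers were at 63832, 52336 and 51090 RPKM in C24xCol at ZT0, ZT6 and ZT15, against 66163, 67265 and 52431 RPKM in ColxC24. The highest of these was RBCS1A, the small subunit of Rubisco, at 22088 RPKM in C24xCol and 34931 RPKM in ColxC24 at ZT6. Flower markers summed to 1.97 to 3.76 RPKM over the 6 hybrid libraries. Root markers summed to 9.64 to 17.8 RPKM, of which SCR, which leaves also express, made up 9.41 to 16.6 RPKM. Seed and pollen markers reached at most 0.184 RPKM, which goes with the label of leaf tissue. The flowering repressor FLC had 91.6, 72.9 and 88.5 RPKM in C24xCol and 83.6, 60.0 and 83.6 RPKM in ColxC24. The C24 parent had 94.0, 53.8 and 99.3 RPKM of FLC and the Col parent 0.139, 0 and 0.0895 RPKM, so that both hybrids stood near the C24 level at each time. FT, which promotes flowering, was at 0 to 0.433 RPKM in the hybrids, against 0.101, 0 and 0.331 RPKM in C24 and 4.39, 1.69 and 18.4 RPKM in Col.

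The first question was whether any transcript differed with the direction of the cross across the day. With genotype and time as additive terms in limma, 0 of 17207 loci passed an adjusted p of 0.05 (0%), and the smallest adjusted p was 0.74. Unadjusted p-values under 0.05 were found for 771 loci (4.48%). The spread in that fit is the genotype-by-time residual, so a difference present at a single time adds to the error as well as to the effect, which is the mean over the 3 times. Single times were therefore described by the size of the difference, C24xCol minus ColxC24 on log2(RPKM + 1), which has no replicate error and no test.

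The hybrids differed by time of day. At ZT0, 144 loci (0.837%) were at least 2-fold higher in C24xCol and 60 (0.349%) at least 2-fold lower. At ZT6 these numbers were 1220 (7.09%) and 167 (0.971%), and at ZT15 they were 17 (0.0988%) and 75 (0.436%). At 1.5-fold, 777 loci (4.52%) were higher and 467 (2.71%) lower at ZT0, 3139 (18.2%) higher and 786 (4.57%) lower at ZT6, and 75 (0.436%) higher and 215 (1.25%) lower at ZT15. The SD of the difference over all loci was 0.34 at ZT0, 0.58 at ZT6 and 0.23 at ZT15. Pearson's r across loci between the hybrids was 0.985 at ZT0, 0.953 at ZT6 and 0.993 at ZT15, against 0.911, 0.924 and 0.921 between C24 and Col. Loci are not independent replicates.

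The excess of higher loci at ZT6 depended on the scaling. The median difference of all loci was 0.04 at ZT0, 0.20 at ZT6 and 0.0035 at ZT15. Scaling by the median of ratios brought the ZT6 median to 0.0075 and the 2-fold counts there to 903 higher and 345 lower, and quantile normalization gave 837 and 421. The share of higher loci among those 2-fold apart at ZT6 was 88.0% on the deposited scale, 72.4% after median-of-ratios scaling and 66.5% after quantile normalization. At 1.5-fold, median-of-ratios scaling gave 2017 higher and 1597 lower loci. Differences at ZT6 are therefore read against the median of 0.20.

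**Figure D1:**
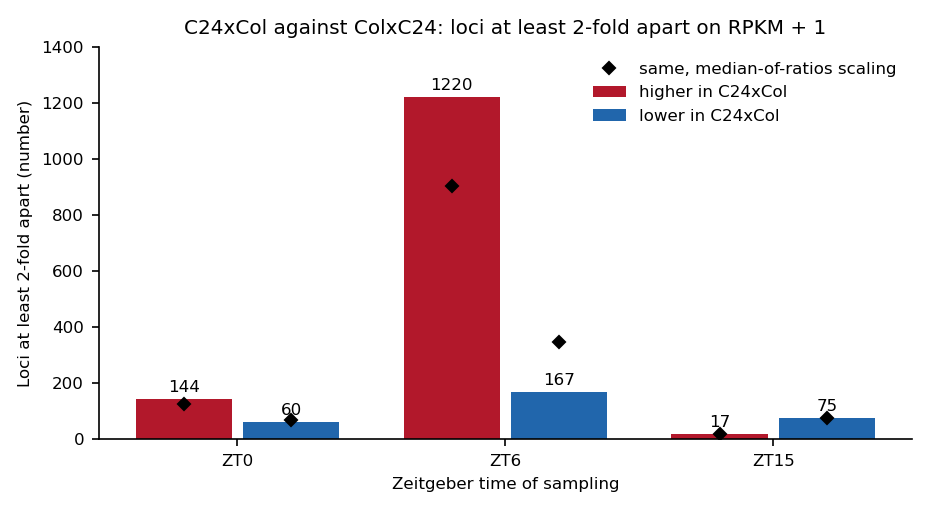
Number of loci at least 2-fold higher (red bars) or lower (blue bars) in C24xCol than in ColxC24 at ZT0, ZT6 and ZT15, on RPKM + 1, with 1 library per hybrid and time; diamonds give the counts after median-of-ratios scaling. The bar for higher loci at ZT6 stands at 1220 and its diamond at 903, against 17 higher loci at ZT15.

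The loci that differed were shared in part between the 3 times. Of the 144 loci higher at ZT0, 68 (47.2%) were also at least 2-fold higher at ZT6, where they made up 5.57% of the 1220; of all loci, 7.09% were 2-fold higher at ZT6. None was among the 17 loci higher at ZT15, from which nothing is read, since 0.0988% of all loci were. Of the 75 loci lower in C24xCol at ZT15, 20 (26.7%) had been among the 1220 higher at ZT6. Across all loci, Pearson's r of the differences was 0.36 between ZT0 and ZT6, -0.05 between ZT0 and ZT15, and -0.04 between ZT6 and ZT15; the 3 differences come from separate libraries.

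Genes of salicylic acid and defence were higher in C24xCol at ZT0 and ZT6. Of 33 genes on that list, 30 were tested. The median difference was 0.67 at ZT0, 1.04 at ZT6 and -0.10 at ZT15. At least 2-fold higher were 8 of 30 at ZT0, 16 at ZT6 and none at ZT15, beside 0.837%, 7.09% and 0.0988% of all loci, so that none of 30 says nothing at ZT15. At least 2-fold lower were 0, 1 and 1, beside 0.349%, 0.971% and 0.436% of all loci. At 1.5-fold, 17 were higher and 0 lower at ZT0, beside 4.52% and 2.71% of all loci. At ZT6, 22 were higher and 2 lower by 1.5-fold, beside 18.2% and 4.57% of all loci. The ZT6 median stayed at 0.94 after median-of-ratios scaling and at 0.88 after quantile normalization.

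RLP23, a receptor-like protein of pattern-triggered immunity, was at 6.97, 27.7 and 6.01 RPKM in C24xCol at ZT0, ZT6 and ZT15, against 3.28, 1.04 and 6.23 RPKM in ColxC24. PNP-A, a small secreted natriuretic peptide, was at 11.4, 50.6 and 17.1 RPKM in C24xCol and at 6.22, 2.76 and 23.0 RPKM in ColxC24. ACD6, a membrane protein that promotes salicylic acid signalling, was at 167, 120.5 and 520.0 RPKM in C24xCol and at 55.3, 26.4 and 447 RPKM in ColxC24. For all 3 genes the hybrids were far apart at ZT6 and near each other at ZT15. Up to 3 members of a list were named for the largest mean difference in size over the times. Their wide gap thus follows in part from the choice. In the parents at ZT6, RLP23 was at 6.47 RPKM in C24 and 1.30 RPKM in Col, ACD6 was at 20.8 and 39.1 RPKM, and C24xCol stood above both.

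Regulators and enzymes upstream of salicylic acid are given next; members of the lists beyond the 3 that the rule for named genes takes from each were chosen after their values were seen. CBP60G, a transcription factor that induces salicylic acid synthesis, was at 5.53, 14.8 and 2.49 RPKM in C24xCol and at 2.43, 0.886 and 3.59 RPKM in ColxC24. Its relative SARD1 was at 13.9, 10.2 and 8.88 RPKM in C24xCol and at 5.83, 2.04 and 9.18 RPKM in ColxC24. Both were higher in C24xCol at ZT0 and ZT6 and not at ZT15. EDS1, a lipase-like hub of resistance signalling, was at 16.9 RPKM in C24xCol and 6.56 RPKM in ColxC24 at ZT6 and at 19.0 RPKM in both at ZT15. ICS1, which makes the precursor of salicylic acid, was at 16.5 RPKM in C24xCol and 8.35 RPKM in ColxC24 at ZT6, a difference of 0.90, and was 0.10 lower on the log2 scale in C24xCol at ZT0 (7.06 against 7.63 RPKM).

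The pathogenesis-related genes at the end of the pathway did not share this pattern. PR1 was at 24.8, 3.08 and 35.3 RPKM in C24xCol and at 32.5, 3.48 and 54.6 RPKM in ColxC24. PR2, a glucanase, was at 32.0, 3.79 and 36.4 RPKM in C24xCol and at 23.4, 6.72 and 31.2 RPKM in ColxC24. PR5, a thaumatin-like protein, was at 35.2, 16.8 and 81.0 RPKM in C24xCol and at 30.4, 23.1 and 73.4 RPKM in ColxC24. At ZT6 all 3 had negative differences, -0.14 for PR1, -0.69 for PR2 and -0.44 for PR5. C24 itself had PR1 at 1019, 125 and 1158 RPKM, far above both hybrids at each time.

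Single annotated genes were also chosen for the largest differences at ZT6, so their wide gap there follows from the choice. The chitinase gene CHI (AT2G43570) was at 5.58, 93.8 and 3.28 RPKM in C24xCol and at 4.56, 0.971 and 3.51 RPKM in ColxC24, a ZT6 difference of 5.59. PCR1, of the plant cadmium resistance family, was at 67.8, 282 and 154 RPKM in C24xCol and at 43.4, 6.52 and 116 RPKM in ColxC24 (5.23 at ZT6). SAG13, a marker of senescence and cell death, was at 2.21, 33.1 and 0.436 RPKM in C24xCol and at 1.41, 0.373 and 2.28 RPKM in ColxC24 (4.63 at ZT6). CHI was thus near level between the hybrids at ZT0 and ZT15, while SAG13 was lower in C24xCol at ZT15. RING1, a ubiquitin ligase of pathogen-induced cell death, was at 67.3, 119 and 16.3 RPKM in C24xCol and at 60.6, 7.12 and 15.9 RPKM in ColxC24 (3.89 at ZT6). At ZT0 the differences of CHI, SAG13 and RING1 lay between 0.15 and 0.42. CRK4, a cysteine-rich receptor-like kinase, was at 49.6 RPKM in C24xCol and 1.85 RPKM in ColxC24 at ZT6, and CML41, a calmodulin-like protein, at 19.4 and 0.280 RPKM. AT1G76960, chosen after its values were seen and left without a role here, had the ZT6 levels 254 RPKM in C24xCol, 2.87 RPKM in ColxC24 and 19.8 RPKM in Col, and it was listed at 0 in all 3 C24 libraries.

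Gene families, chosen after their values were seen, were counted at ZT6 beside the 7.09% of all loci that were at least 2-fold higher there. Families other than the resistance receptors were taken by gene symbol or synonym. A family so taken can hold other genes that share its symbol, as CYP holds Pnsl5 beside cytochrome P450 genes. At ZT6, at least 2-fold higher in C24xCol were 15 of 32 cysteine-rich receptor-like kinase (CRK) genes tested and 14 of 29 receptor-like protein (RLP) genes. So were 13 of 35 NAC and 12 of 36 WRKY transcription factor genes, 26 of 110 CYP genes and 8 of 30 glutathione S-transferase genes. Lower by 2-fold were 1 WRKY gene and no member of the others, beside 0.971% of all loci, so nothing is read from these. Of ERF transcription factor genes 4 of 13 were at least 2-fold higher, of lipid transfer protein (LTP) genes 2 of 7, of glycosyltransferase (UGT) genes 6 of 39, of MYB transcription factor genes 5 of 39 and of PUB ubiquitin ligase genes 3 of 20. At or below the share of all loci were 0 of 22 heat shock protein (HSP), 1 of 21 light-harvesting (LHC) and 0 of 9 JAZ genes. Of xyloglucan enzyme (XTH) genes 3 of 19 were at least 2-fold higher, with a median difference of -0.32. Intracellular resistance receptors (TIR-NBS or NBS-LRR proteins, 85 tested) were above 0 in nearly all members at ZT0 and ZT6. Their median difference was 0.28 at ZT0, where 84 of 85 were above 0, and 0.72 at ZT6, where 81 were above 0 and 55 at least 1.5-fold higher. Of all loci 56.5% were above 0 at ZT0, 68.9% at ZT6, and 18.2% were at least 1.5-fold higher at ZT6. At ZT15 the median was -0.02. Set against these, WRKY70, a node between salicylic acid and jasmonate signalling, was at 69.1, 11.7 and 125 RPKM in C24xCol and at 21.7, 27.2 and 116 RPKM in ColxC24, so its difference was 1.63 at ZT0 and -1.15 at ZT6.

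Each of these ZT6 values rests on 1 library per hybrid, and several features of those libraries moved with them. The chloroplast share of RPKM was 0.183% in C24xCol and 0.384% in ColxC24 at ZT6, and the summed leaf markers were at 52336 and 67265 RPKM. Their part in the differences was not tested. Library, plant and genotype cannot be told apart at a single time, and a change in cell composition cannot be told apart from a change in RNA per cell.

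The 1220 loci higher at ZT6 were also set beside the parents. C24xCol was above both parents at 1014 of them (83.1%) and ColxC24 below both at 765 (62.7%), against 32.6% and 48.3% of all loci tested. The same 2 hybrid libraries chose these loci, so nothing is read from the shares. At the 75 loci lower in C24xCol at ZT15, C24xCol was below both parents at 37 (49.3%) and ColxC24 above both at 46 (61.3%), against 20.4% and 18.3% of all loci, and here too nothing is read from shares that the same libraries chose.

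Genes of abscisic acid, cold and touch responses also had ZT6 medians above that of all loci. Of 20 abscisic acid and drought genes tested, all 20 were above 0 at ZT6, 14 were at least 1.5-fold and 6 at least 2-fold higher in C24xCol, beside 68.9%, 18.2% and 7.09% of all loci. Their medians were 0.09 at ZT0, 0.74 at ZT6 and 0.27 at ZT15. Of 12 cold-response genes, 5 were at least 2-fold higher at ZT6, with medians of -0.06, 0.79 and 0.12. Of 11 genes of the rapid response to touch and stress, 6 were at least 2-fold higher at ZT6, with medians of 0.56, 1.11 and -0.19. No gene on these 3 lists was 2-fold lower at ZT6, from which nothing is read, since 0.971% of all loci were. After median-of-ratios scaling the ZT6 medians were 0.54, 0.57 and 0.95. With that scaling 9 abscisic acid genes were at least 1.5-fold higher, against 11.7% of all loci. Of each list 4 genes were at least 2-fold higher, against 5.25% of all loci. Quantile normalization left 3 abscisic acid genes at least 2-fold higher, against 4.86% of all loci.

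COR47, a dehydrin, was at 60.3, 59.4 and 37.5 RPKM in C24xCol and at 65.4, 11.6 and 27.8 RPKM in ColxC24. RD26, a NAC factor of the abscisic acid response, was at 4.47, 22.9 and 2.64 RPKM in C24xCol and at 2.30, 4.93 and 2.75 RPKM in ColxC24. ERD10, another dehydrin, was at 17.4, 66.4 and 56.2 RPKM in C24xCol and at 23.5, 18.7 and 40.9 RPKM in ColxC24. COR47 and ERD10 were higher in C24xCol at ZT6 and not at ZT0, while RD26 was also 0.73 higher at ZT0. TCH3, a calmodulin-like protein of the touch response, was apart at ZT0 as well, at 134, 63.2 and 39.7 RPKM in C24xCol and at 63.6, 13.8 and 57.5 RPKM in ColxC24. NCED3, the enzyme that limits abscisic acid synthesis, was at 4.40 RPKM in C24xCol and 1.39 RPKM in ColxC24 at ZT6. In 3 genes named here Col stood far above both hybrids at ZT6. Col had COR47 at 301 RPKM, and it had COR15A, a protein that protects the chloroplast in the cold, at 1768 RPKM against 123 RPKM in C24xCol and 60.1 RPKM in ColxC24. LTP3, a lipid transfer protein with close relatives that may share its reads, was at 88.2 RPKM in C24xCol, 3.55 RPKM in ColxC24, 2.15 RPKM in C24 and 691 RPKM in Col at ZT6.

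**Figure D2:**
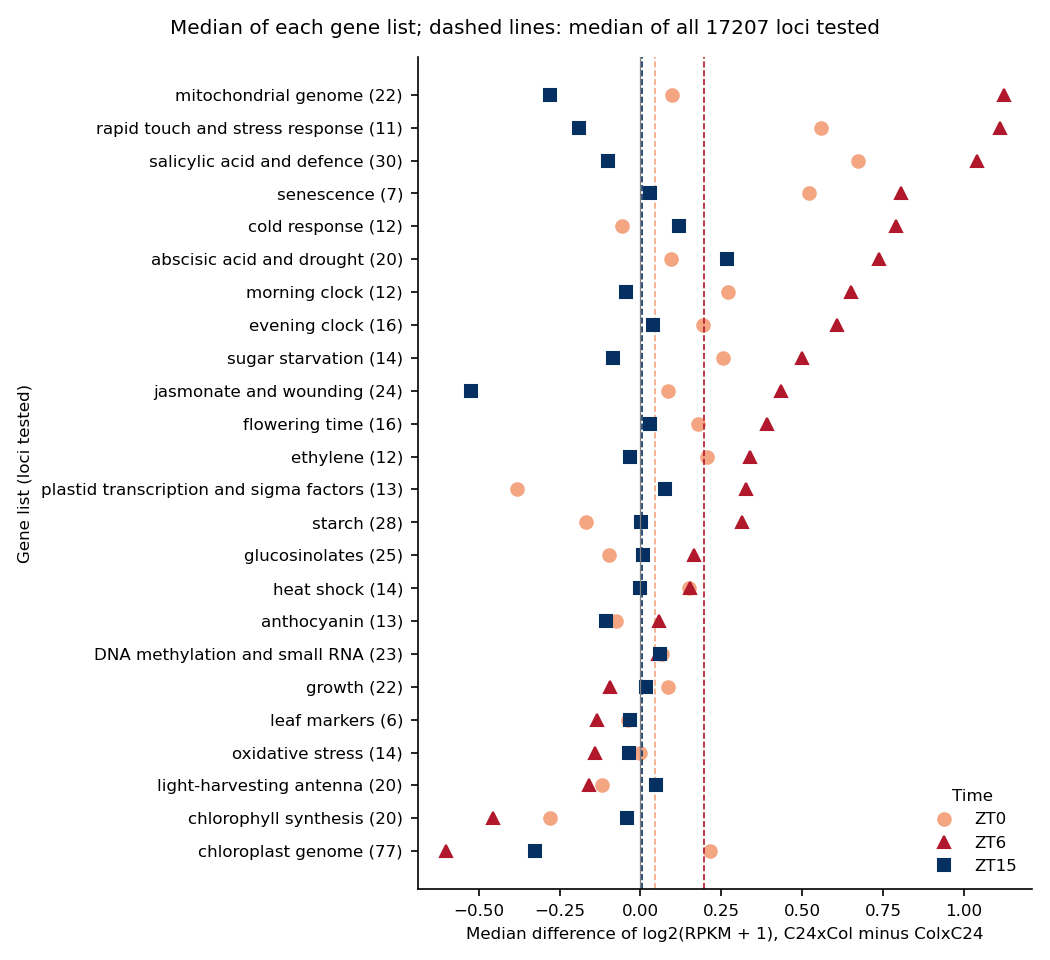
Median difference of log2(RPKM + 1), C24xCol minus ColxC24, for each gene list at ZT0, ZT6 and ZT15; dashed lines give the median of all loci tested (0.04, 0.20 and 0.0035). The salicylic acid and defence list stands at 1.04 at ZT6 and the jasmonate and wounding list at -0.52 at ZT15, and the antenna list, at -0.16 at ZT6, turns sign after quantile normalization.

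The 4 core clock genes named here had their highest level at the same time in both hybrids. CCA1 was at 233, 39.5 and 0.690 RPKM in C24xCol at ZT0, ZT6 and ZT15, against 188, 21.9 and 0.590 RPKM in ColxC24. LHY was at 489, 8.60 and 1.45 RPKM in C24xCol and at 444, 6.34 and 1.24 RPKM in ColxC24. TOC1 was at 9.60, 6.90 and 38.4 RPKM in C24xCol and at 7.31, 3.10 and 40.1 RPKM in ColxC24. Both morning genes were highest at ZT0 and TOC1 at ZT15 in each hybrid. GI was listed at 0 in both hybrids at ZT0, at 23.8 RPKM in C24xCol and 12.2 RPKM in ColxC24 at ZT6, and at 1.88 and 1.53 RPKM at ZT15.

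At ZT6 the medians of clock genes of both phases were above that of all loci, of which 68.9% were above 0 and 18.2% at least 1.5-fold higher. All 12 morning genes tested were above 0, with a median of 0.65 and 8 at least 1.5-fold higher. Of 16 evening genes, 13 were above 0, with a median of 0.61, 8 at least 1.5-fold higher and 1 at least 1.5-fold lower. After median-of-ratios scaling these medians were 0.43 and 0.44. At least 1.5-fold higher were then 4 morning and 5 evening genes, beside 11.7% of all loci. After quantile normalization they were 3 and 5, beside 10.6% of all loci. RVE1, a morning transcription factor related to CCA1, was at 139.6, 5.34 and 1.21 RPKM in C24xCol and at 112.9, 0.917 and 1.53 RPKM in ColxC24. PRR5, a repressor of CCA1 and LHY, was at 0.255, 8.82 and 3.66 RPKM in C24xCol and at 0.340, 2.14 and 2.94 RPKM in ColxC24. SIG5, a light-induced sigma factor that carries clock signals into the chloroplast, was at 62.5, 77.6 and 3.95 RPKM in C24xCol and at 43.9, 11.7 and 3.35 RPKM in ColxC24. At ZT15 the medians of both clock lists were within 0.05 of 0.

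Loci were also grouped by the time at which both parents had their highest level. The 401 loci that peaked at ZT0 in the parents had median differences of 0.37 at ZT0, 0.55 at ZT6 and 0.00 at ZT15; 90.5% of them were above 0 at ZT0. The 117 loci that peaked at ZT6 had medians of 0.00, 0.04 and -0.05. The 122 loci that peaked at ZT15 had medians of -0.04, 0.44 and 0.01. Against the ZT6 median of all loci, 0.20, the midday peakers were thus below it and the other 2 classes above it. After quantile normalization the midday peakers, then 135 loci, had a ZT6 median of -0.0056, above the -0.05 of all loci.

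Genes of chlorophyll synthesis differed in the opposite direction. Of 20 tested, none was above 0 at ZT6 and 6 were at least 1.5-fold lower in C24xCol, beside 68.9% and 4.57% of all loci. None was 2-fold lower, from which nothing is read, since 0.971% of all loci were. Their medians were -0.28 at ZT0, -0.46 at ZT6 and -0.04 at ZT15. The ZT6 median was -0.68 after median-of-ratios scaling and -0.45 after quantile normalization. HEMC, which builds the tetrapyrrole chain, was at 210.2, 231 and 335 RPKM in C24xCol and at 285, 401 and 347 RPKM in ColxC24. PCB2, a vinyl reductase late in the pathway, was at 67.9, 85.4 and 174 RPKM in C24xCol and at 104, 145 and 181 RPKM in ColxC24. FLU, the brake on the pathway's first step, was at 52.9, 45.3 and 80.0 RPKM in C24xCol and at 64.8, 81.1 and 82.6 RPKM in ColxC24. The 20 antenna genes had medians of -0.12, -0.16 and 0.05, where the ZT6 value became 0.05 after quantile normalization.

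**Figure D3:**
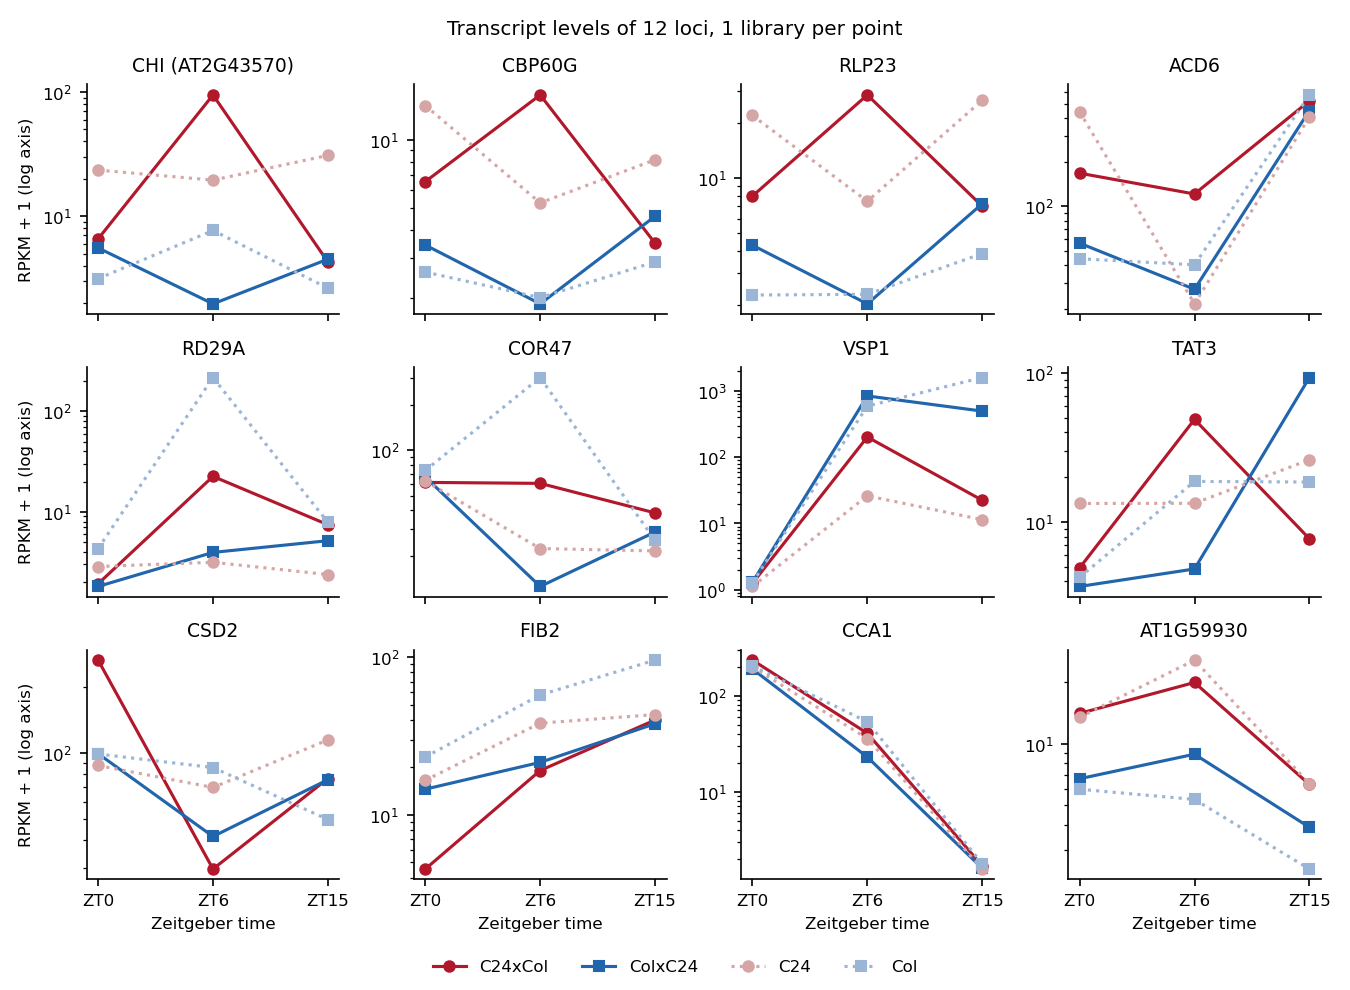
RPKM + 1 of 12 loci at ZT0, ZT6 and ZT15 on a logarithmic axis, with 1 library per point, for C24xCol, ColxC24, C24 and Col. The hybrids are apart at ZT6 for CHI (93.8 RPKM in C24xCol against 0.971 RPKM in ColxC24), at ZT15 for VSP1 (21.4 against 496 RPKM) and at ZT0 for CSD2 and FIB2, while CCA1 is highest at ZT0 in both.

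At dawn (ZT0) 3 genes of copper and superoxide metabolism were higher in C24xCol, on an oxidative stress list without a shared direction. Of its 14 genes tested, 7 were above 0 and 2 at least 1.5-fold lower, beside 56.5% and 2.71% of all loci. The median difference was 0.00. CSD1, the cytosolic copper/zinc superoxide dismutase, was at 166, 46.6 and 67.6 RPKM in C24xCol and at 59.2, 36.5 and 73.7 RPKM in ColxC24. CSD2, its chloroplast counterpart, was at 266, 28.6 and 75.7 RPKM in C24xCol and at 98.6, 40.6 and 74.7 RPKM in ColxC24. CCS, the chaperone that loads copper into both, was at 56.7, 11.2 and 11.5 RPKM in C24xCol and at 26.1, 9.22 and 11.2 RPKM in ColxC24. These were the 3 of 14 oxidative stress genes at least 2-fold higher at ZT0, beside 0.837% of all loci, and at ZT15 their differences lay between -0.12 and 0.03. All 3 are known targets of the microRNA miR398. The precursor locus MIR398b, which overlaps a second gene so that reads cannot be assigned without strand, was at 7.95, 12.1 and 2.30 RPKM in C24xCol and at 5.40, 2.31 and 1.45 RPKM in ColxC24. MIR398c was at 8.39, 5.78 and 5.19 RPKM in C24xCol and at 10.1, 5.61 and 2.13 RPKM in ColxC24.

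Genes of the nucleolus were lower in C24xCol at dawn. FIB2, fibrillarin of the complex that methylates ribosomal RNA, was at 3.54, 18.1 and 38.9 RPKM in C24xCol and at 13.6, 20.5 and 36.8 RPKM in ColxC24. HDA3, a nucleolar histone deacetylase, was at 4.16, 27.8 and 40.8 RPKM in C24xCol and at 12.3, 22.6 and 40.8 RPKM in ColxC24. The hybrids were apart at ZT0 and close at the other times. These led to a list of 11 nucleolar genes, chosen after their values were seen and so with no test. All 11 were below 0 at ZT0, where 56.5% of all loci were above 0. At least 1.5-fold lower were 9 and at least 2-fold lower 3, beside 2.71% and 0.349% of all loci. FIB2 and HDA3, which led to the list, are counted in it and were its lowest members at ZT0. The medians were -0.76 at ZT0, 0.28 at ZT6 and 0.07 at ZT15. Cytosolic ribosomal protein genes were taken by an RPL or RPS symbol or synonym with a number and a closing letter. Other genes of that class may be left out. The 27 tested, also chosen after their values were seen, had medians of -0.44 at ZT0, with 26 of 27 below 0, -0.34 at ZT6 and -0.06 at ZT15.

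Other genes lower in C24xCol at dawn were GER3, a germin-like protein with a daily rhythm, at 200.0, 21.4 and 1709 RPKM in C24xCol and at 546, 56.5 and 1734 RPKM in ColxC24. CYP79B2, of indole glucosinolate and camalexin synthesis, was at 4.53 RPKM in C24xCol and 13.4 RPKM in ColxC24 at ZT0. IKU2, a receptor-like kinase known for its role in endosperm growth, was at 0.0117 RPKM in C24xCol and 2.11 RPKM in ColxC24 at ZT0, against 0.0261 RPKM in C24 and 0.999 RPKM in Col. At ZT0 each hybrid thus lay on the side of its mother for IKU2, while at ZT6 it was at 12.4 RPKM in C24xCol and 9.39 RPKM in ColxC24, above both parents. Of 14 genes imprinted in the endosperm, 2 passed the filter on low values, with differences of -0.43 to 0.36 over the 3 times. The 23 genes of DNA methylation and small RNA pathways had medians of 0.07, 0.05 and 0.06, with 1 at least 1.5-fold lower at ZT6; the ZT6 median was -0.14 after median-of-ratios scaling.

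At ZT15 most jasmonate genes were lower in C24xCol. Of 24 tested, 2 were above 0, 11 were at least 1.5-fold and 7 at least 2-fold lower, and 1 was 2-fold higher. Of all loci 51.1% were above 0, 1.25% at least 1.5-fold lower and 0.436% at least 2-fold lower. The medians were 0.08 at ZT0, 0.43 at ZT6 and -0.52 at ZT15. VSP1, a vegetative storage protein induced by jasmonate, was at 0.248, 201 and 21.4 RPKM in C24xCol and at 0.299, 841 and 496 RPKM in ColxC24. Its near copy VSP2, with which it may share reads, was at 0.635, 503 and 8.41 RPKM in C24xCol and at 1.42, 1286 and 124 RPKM in ColxC24. In the parents at ZT15, VSP1 was at 10.4 RPKM in C24 and 1597 RPKM in Col, and VSP2 was at 1.86 and 926 RPKM. At ZT15 each hybrid lay between the parents for both genes and, on log2(RPKM + 1), nearer to its mother. In RPKM itself ColxC24 was nearer to C24, its father, for both genes.

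NATA1 and MBP1 had the same gap at ZT15 without one of that size at ZT6. NATA1, an acetyltransferase that makes the defence compound acetylornithine, was at 0.0394, 19.7 and 0.0843 RPKM in C24xCol and at 0, 20.3 and 11.2 RPKM in ColxC24. MBP1, a myrosinase-binding protein, was at 0.503, 32.4 and 15.6 RPKM in C24xCol and at 0.745, 41.4 and 111 RPKM in ColxC24. TAT3, a tyrosine aminotransferase, crossed over, with 3.93, 47.8 and 6.74 RPKM in C24xCol and 2.70, 3.85 and 92.0 RPKM in ColxC24. Both hybrids thus expressed NATA1 and MBP1 at midday, and the gap lay in the evening sample. CSLA01, of the mannan synthase family, was at 2.01 RPKM in C24xCol and 47.1 RPKM in ColxC24 at ZT15, and BAM5, a beta-amylase outside the chloroplast, at 19.8 and 149.9 RPKM. All 9 JAZ repressors tested, which jasmonate induces and which then shut off its signalling, were below 0 at ZT15, with a median of -0.46. At least 2-fold lower were 4 of them, beside 0.436% of all loci. JAZ1 was at 2.24, 33.7 and 3.30 RPKM in C24xCol and at 1.70, 30.1 and 8.94 RPKM in ColxC24, and JAZ5 at 1.36, 5.44 and 0.835 RPKM in C24xCol and at 0.927, 3.69 and 3.70 RPKM in ColxC24. MYC2, the transcription factor that JAZ proteins hold back, was at 4.36, 122 and 19.2 RPKM in C24xCol and at 3.11, 75.7 and 33.6 RPKM in ColxC24.

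The jasmonate gene at least 2-fold higher in C24xCol at ZT15 was PDF1.2A, a defensin of the ethylene-dependent branch of the pathway, at 3.33, 3.98 and 8.16 RPKM in C24xCol and at 3.12, 0.438 and 1.34 RPKM in ColxC24. A pair of genes of the ER body, a store of defence enzymes, was chosen after their values were seen. BGLU18, its beta-glucosidase, was at 6.94, 242 and 131 RPKM in C24xCol and at 9.46, 221 and 626 RPKM in ColxC24. TSA1, which shapes the ER body, was at 1.90, 24.7 and 12.1 RPKM in C24xCol and at 2.56, 25.8 and 61.1 RPKM in ColxC24. Both were level at ZT6 and lower in C24xCol at ZT15, by 2.25 on the log2 scale each.

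Transcripts of the maternally inherited chloroplast genome were compared next. Of 133 chloroplast loci, 77 passed the filter on low values. Their median difference was 0.22 at ZT0, -0.60 at ZT6 and -0.33 at ZT15. At least 2-fold higher were 23 at ZT0 and 1 at ZT6, and at least 2-fold lower were 24 at ZT6 and 5 at ZT15. Of all loci 0.837% and 7.09% were higher at ZT0 and ZT6, and 0.971% and 0.436% lower at ZT6 and ZT15. The chloroplast share of summed RPKM was 0.939%, 0.183% and 0.874% in C24xCol and 0.303%, 0.384% and 1.25% in ColxC24. The 4 ribosomal RNA loci of the nuclear annotation took 1.76%, 0.101% and 0.982% in C24xCol and 0.219%, 0.193% and 1.42% in ColxC24. Both shares stood in the same order between hybrids at each time. The chloroplast share counts all chloroplast loci, with those of ribosomal RNA not set apart, so it need not be a separate feature. How much chloroplast or ribosomal RNA remained in a library is set in part by the selection of messenger RNA, whose part here was not tested. ATCG01210 was at 1641, 132 and 2288 RPKM in C24xCol and at 305, 568 and 2681 RPKM in ColxC24.

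**Figure D4:**
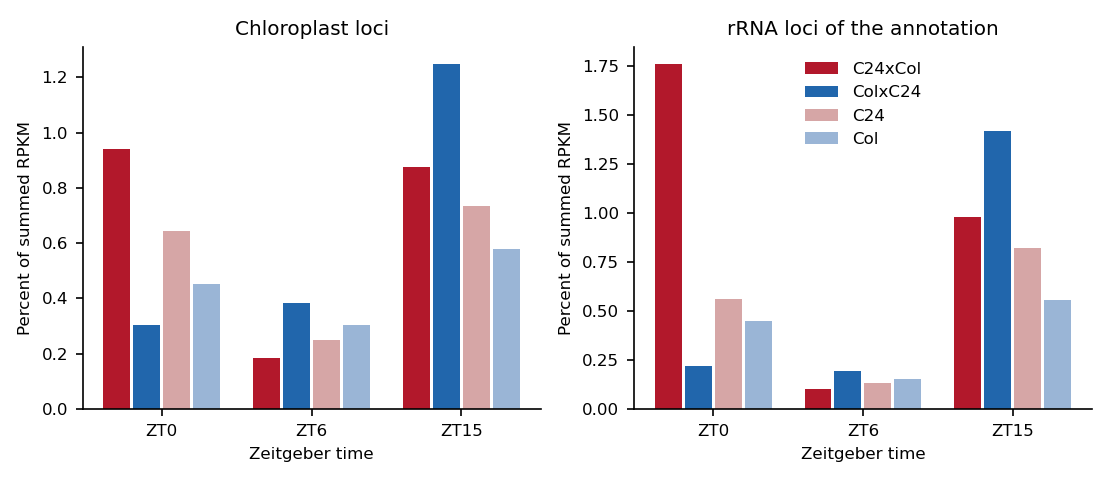
Share of summed RPKM (percent) in the loci of the chloroplast genome and in the 4 ribosomal RNA loci of the nuclear annotation, at ZT0, ZT6 and ZT15, with 1 library per bar, for C24xCol, ColxC24, C24 and Col. At ZT0 C24xCol stands at 0.939% and 1.76%, above ColxC24 at 0.303% and 0.219%, and at ZT6 and ZT15 it stands below ColxC24 in both panels.

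Whether chloroplast loci followed the mother was asked after their values were seen, so no test is given. The sign of C24xCol minus ColxC24 was that of C24 minus Col at 48 of 77 loci at ZT0 (62.3%), 63 at ZT6 (81.8%) and 49 at ZT15 (63.6%). It was that sign at all 3 times for 28 loci (36.4%) and the opposite sign at all 3 for 2 (2.60%). Over all 17207 loci the sign was shared by 55.7% at ZT0, 39.2% at ZT6 and 52.4% at ZT15. It was shared at all 3 times by 11.7% and opposite at all 3 by 13.0%. At ZT0 the median of the chloroplast loci was 0.22 for C24xCol minus ColxC24 and -0.02 for C24 minus Col. Chloroplast loci of 1 library move together with its chloroplast share, so these are not 77 separate observations. The 22 mitochondrial loci tested, of 146, had 1 with the shared sign at all 3 times and 2 with the opposite sign. Their median was 0.10, 1.12 and -0.28 on levels near the filter, and at a minimum mean of 5 RPKM the ZT6 median was -0.52.

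A few chloroplast loci kept apart at every time. ATCG00480 was at 42.4, 19.6 and 53.6 RPKM in C24xCol and at 70.4, 72.1 and 74.9 RPKM in ColxC24. In the mothers it was at 42.9, 19.0 and 35.6 RPKM in C24, against 66.1, 54.4 and 53.5 RPKM in Col. ATCG01020 was at 17.2, 11 and 12.2 RPKM in C24xCol and at 26.7, 27.5 and 22.9 RPKM in ColxC24, with 21.5, 9.20 and 8.90 RPKM in C24 and 37.1, 23.7 and 21.6 RPKM in Col. For both loci C24xCol was lower than ColxC24, and C24 lower than Col, at 3 of 3 times. Both are given because they kept apart, so the steady sign between the hybrids follows from the choice. In limma, ATCG01020 had a difference of -0.91 (SE 0.20) and ATCG00480 one of -1.01 (SE 0.27), each with an adjusted p of 0.74. Reads of C24 were mapped to a reference of Col, per the build in the submitters' processing notes, and whether sequence differences between the 2 chloroplast genomes lower the counts of C24 was not tested.

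**Figure D5:**
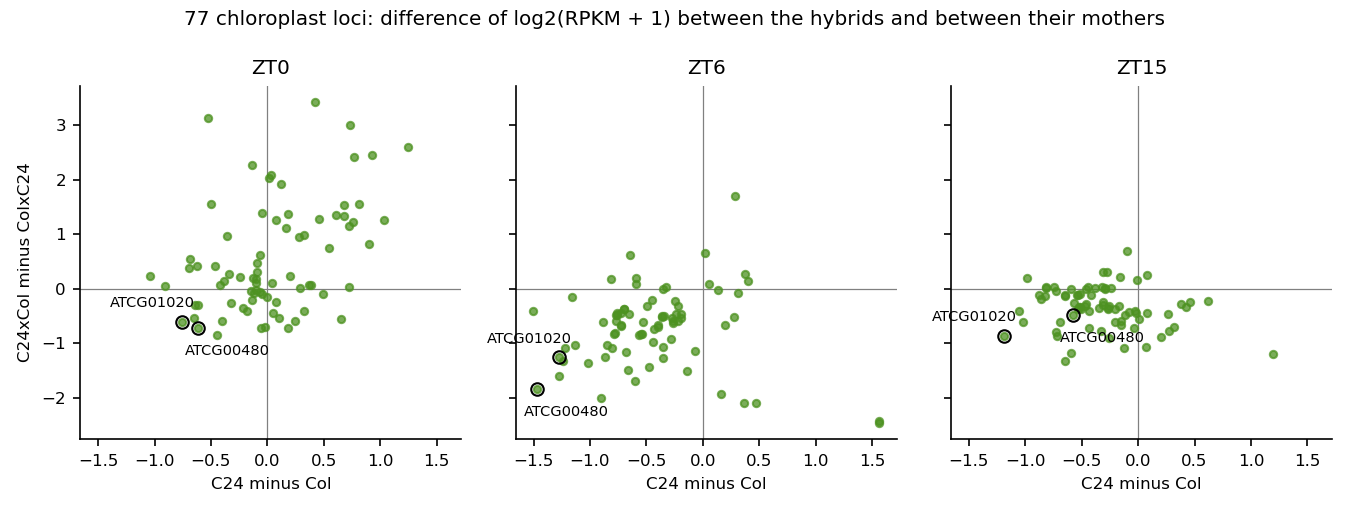
Difference of log2(RPKM + 1) for the 77 chloroplast loci tested, C24xCol minus ColxC24 (vertical axis) against C24 minus Col (horizontal axis), at ZT0, ZT6 and ZT15; each point is 1 locus and each axis rests on 2 libraries. At ZT6 63 of the 77 loci share their sign on both axes, beside 39.2% of all loci tested. The circled loci ATCG00480 and ATCG01020 are below 0 on both axes at each time.

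Loci that differ between the parents were used to ask for a general lean towards the mother. At 553 loci the parents were at least 2-fold apart in the same direction at all 3 times, 252 higher in C24 and 301 higher in Col. The median difference between hybrids, signed towards the mother, was 0.06 at ZT0, 0.13 at ZT6 and -0.03 at ZT15. The mean of the 3 was 0.052 on the deposited scale, 0.105 after median-of-ratios scaling and 0.127 after quantile normalization; 3 times are too few for a test. At ZT6 the loci higher in C24 had a median of 0.77 and those higher in Col one of 0.16, beside the median of 0.20 of all loci. After median-of-ratios scaling, with 292 loci higher in C24 and 256 higher in Col, these ZT6 medians were 0.66 and -0.02, and after quantile normalization, with 299 and 240, they were 0.63 and -0.11. At ZT15 the medians were -0.03 and 0.03. Towards the mother at all 3 times were 102 of the 553 and away from her 99, against 121 and 70 of 548 after median-of-ratios scaling and 127 and 68 of 539 after quantile normalization. The balance thus depended on the scaling.

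Single loci were searched for a steady parental bias, again after their values were seen. Of the 553 loci, 1 had both hybrids nearer to the mother at all 3 times and 1 had both nearer to the father. The first was AT1G59930, annotated as a MADS-box family protein. It was at 13.1, 19.0 and 5.31 RPKM in C24xCol and at 5.73, 7.88 and 2.89 RPKM in ColxC24. In the mothers it was at 12.5, 24.7 and 5.36 RPKM in C24, against 4.98, 4.33 and 1.43 RPKM in Col. C24xCol was thus nearer to C24 at each time, while ColxC24 was nearer to Col at ZT0 and ZT6 and about midway between the parents at ZT15. The limma difference was 0.98 (SE 0.20), with an unadjusted p of 6.6e-04 and an adjusted p of 0.74. The same libraries picked this locus, so nothing is read from the unadjusted p. The other was IBH1, an inhibitor of cell elongation, at 7.32, 12.2 and 3.89 RPKM in C24xCol, 4.99, 2.13 and 2.71 RPKM in ColxC24, 2.41, 0.859 and 1.49 RPKM in C24, and 9.62, 4.92 and 4.99 RPKM in Col. Among 1181 loci with parents at least 1.5-fold apart, 5 had both hybrids nearer to the mother and 5 nearer to the father.

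Few loci differed in size at all 3 times. At least 1.5-fold higher at each time were 2 loci (0.0116%), AT1G59930 and AT2G33830, and at least 1.5-fold lower were 4 (0.0232%), AT1G14250, AT4G18440, ATCSLA15 and ATCG01020. AT2G33830 was at 37.7, 8.51 and 9.03 RPKM in C24xCol and at 20.1, 1.60 and 4.83 RPKM in ColxC24. ATCSLA15, a cellulose synthase-like protein, was at 1.60, 27.9 and 8.89 RPKM in C24xCol and at 4.10, 44.0 and 20.9 RPKM in ColxC24. Its gap was widest at ZT15, whereas that of AT2G33830 was widest at ZT6. AT1G14250 was at 1.99, 129.5 and 14.6 RPKM in C24xCol and at 3.86, 350.0 and 136.7 RPKM in ColxC24. AT4G18440 was at 25.9, 798 and 148 RPKM in C24xCol and at 44.1, 1401 and 292 RPKM in ColxC24. All 6 loci except ATCSLA15 and ATCG01020 were named after their values were seen.

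Other genes had differences of 1 sign at all times that did not reach 1.5-fold at each. AAP2, an amino acid permease of the phloem, was at 43.3, 56.5 and 20.7 RPKM in C24xCol and at 20.9, 4.57 and 13.8 RPKM in ColxC24. SOC1, a promoter of flowering that FLC represses, was at 2.27, 12.4 and 1.99 RPKM in C24xCol and at 1.38, 2.85 and 1.11 RPKM in ColxC24, against 6.70, 5.02 and 1.44 RPKM in C24 and 28.9, 37.7 and 17.6 RPKM in Col. CRF8, a cytokinin response factor, was at 11.3, 13.1 and 10.1 RPKM in C24xCol and at 7.61, 6.04 and 6.32 RPKM in ColxC24. For all 3 genes C24xCol was higher at 3 of 3 times, which follows from their choice by 1 sign at all times. Their limma differences, from the same libraries, were 1.64 (SE 0.54), 0.92 (SE 0.37) and 0.70 (SE 0.20), each with an adjusted p of 0.74. Lower at all times was RTFL3, of a family of small peptides, at 4.97, 1.03 and 2.56 RPKM in C24xCol and at 7.28, 4.09 and 4.67 RPKM in ColxC24.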

How the data were processed

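The deposited values are RPKM, 1 table per library with 38710 gene models, per the file headers; reads were 84 bp long, per the labels. The genome build was TAIR9, per the submitters' processing notes. The aligner, the counter, the use of strand and the fate of multiply mapped reads are not stated in the labels or headers, and near-identical genes may share reads. Models were summed per locus. Names came from the TAIR10.1 annotation of RefSeq (31786 of 32592 loci), used for names and overlaps only; positions and sequences are not given because that build differs.

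RPKM are not counts. Of low values in genes with 1 model, 36.2 to 42.7% lay within 0.01 of a whole read, which gave the estimated depth but not counts for all genes. Loci whose mean reached 1 RPKM entered a limma fit (version 3.58.1, R 4.3.3) of log2(RPKM + 1) (genotype and time additive, 12 libraries, 6 residual degrees of freedom, trended empirical Bayes, two-sided, Benjamini-Hochberg over 17207 loci, threshold 0.05). The pseudocount of 1 understates changes of low genes. With 1 library per genotype and time, p-values rest on the genotype-by-time residual, not on replicates, and single times were counted by size without a test. Scripts were tested on simulated data. The 28 gene lists and the tests were chosen with earlier results of these data known.

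Genes were named by rule: 8 loci per direction with 1 sign at all 3 times and the largest smallest difference, 8 per direction and time with the largest difference (annotated or organelle loci with a hybrid mean of at least 3 RPKM), up to 3 per list, and CCA1, LHY, TOC1, GI, FLC, FT, PR1, WRKY54, RD29A and COR15A. Those of a list had its largest mean differences in size over the 3 times. Gaps of genes named by size thus follow in part from the choice. A part of the genes named by rule is described, and others are marked as chosen after their values were seen. Alternatives were other scalings, pseudocounts, filters, fold limits, nuclear loci only, hybrids only, and leaving out libraries or times.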

Additional observations from a re-analysis of the deposited data

Results flagged for a closer look

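No group has 4 samples, so none was tested for standing far from its group. At the single times the effect of the cross went in opposite directions at a size of 2-fold or more in 13 named loci, and no difference between times was tested, since each time has 1 library per hybrid. All values are differences of log2(RPKM + 1), C24xCol minus ColxC24, and their cause was not tested.

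GSTF7, a glutathione S-transferase whose close relative GSTF6 may share its reads, differed by 1.53 at ZT0, 4.29 at ZT6 and -1.24 at ZT15. TAT3 differed by 3.33 at ZT6 and -3.59 at ZT15, SAG13 by 4.63 and -1.19, and LTP3 by 4.29 and -2.72 at these times. XTH31, a cell wall xyloglucan enzyme, differed by -1.25 at ZT0 and 1.28 at ZT6. U1.5, a small nuclear RNA gene, differed by -1.52 at ZT6 and 1.14 at ZT15.

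The other 7 lay in the chloroplast genome, where ribosomal RNA was not set apart, and were higher in C24xCol at ZT0. Near-identical copies may share reads, so these are not 7 separate observations. At ZT0 and ZT6, ATCG00490 differed by 2.60 and -1.51, ATCG00700 by 1.23 and -2.0, ATCG00960 by 2.09 and -2.08, ATCG00970 by 3.14 and -2.42, ATCG01160 by 3.01 and -2.46, and ATCG01210 by 2.42 and -2.10. ATCG00920 differed by 2.45 at ZT0 and -1.20 at ZT15. The chloroplast share of RPKM, 0.939% in C24xCol and 0.303% in ColxC24 at ZT0 and 0.183% and 0.384% at ZT6, moved with them.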

How the results depend on the processing

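The fit has time as a term and so compares the hybrids within times; with the 6 hybrid libraries alone limma called 0 loci (smallest adjusted p = 0.639). With a pseudocount of 0.1 the 2-fold counts were 335 higher and 176 lower at ZT0, 338 lower at ZT6, and 53 higher and 172 lower at ZT15. At 1.5-fold they were 777 and 467, 3139 and 786, and 75 and 215. At ZT6 the lower loci numbered 345 after median-of-ratios scaling and 421 after quantile normalization. With a minimum mean of 5 RPKM, which left 12209 loci, 799 (6.54%) were higher at ZT6. At ZT15 8 (0.0655%) were then higher and 49 (0.401%) lower. The shares of the 17207 loci were 7.09%, 0.0988% and 0.436%. Loci 1.5-fold apart at all 3 times numbered 4 higher after quantile normalization and 34 higher and 10 lower with a pseudocount of 0.1; 0 were 2-fold apart in either direction. With 1 time left out the range was 8 to 453 higher and 12 to 95 lower, as fewer times had to meet the limit. limma called 2 loci with no filter (FAR6 and MYB80, all at most 0.05 RPKM) and 0 to 1 with a library or time left out: AT1G54355, a long noncoding RNA that overlaps AT1G54350, was called without ZT0 (adjusted p = 0.0164) and without C24xCol at ZT0 (adjusted p = 2.34e-04). The mitochondrial ZT6 median was -0.52 with a minimum of 5 RPKM, and the cause was not tested. Of 426 list medians under the alternatives, 422 moved by less than the spread of a difference in the fit, 3 moved further and 1 reversed, where sign changes of medians under 1.5-fold were not counted. Of 990 values of named genes, 976 moved by less and 14 by more. Depth limits values near 0.1 RPKM to a few reads per kb, and 1 library per hybrid and time limits every single-time value.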

Other observations

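AT2G23672, a long noncoding RNA that overlaps AT2G23670, was at 9.31, 4.55 and 152 RPKM in C24xCol over ZT0, ZT6 and ZT15, against 6.79, 142 and 6.89 RPKM in ColxC24, so that the hybrids stood in opposite orders at ZT6 and ZT15. AT1G54355 was at 12.3, 0.529 and 0.672 RPKM in C24xCol and at 13.1, 8.91 and 11.7 RPKM in ColxC24, with 7.27 to 10.7 RPKM in the parents. Reads of overlapping genes cannot be told apart without strand. Both loci were chosen after their values were seen.

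2 further loci, also chosen after their values were seen, were lower in C24xCol at ZT0. bHLH38, a transcription factor of the iron deficiency response, was at 0.464, 0.700 and 0.271 RPKM in C24xCol and at 3.05, 0 and 0.138 RPKM in ColxC24. AT1G47400 was at 3.11, 1.09 and 9.97 RPKM in C24xCol and at 12.6, 0.0816 and 12.5 RPKM in ColxC24. In the parents at ZT0 bHLH38 was at 0.0951 RPKM in C24 and 3.46 RPKM in Col, and AT1G47400 was at 2.58 and 8.12 RPKM.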
